A study of Sus scrofa with 80 samples.

Results

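The testis of the Göttingen minipig, a small pig breed used in drug safety testing, was compared before and after the age at which sperm production begins. The arrays were chosen by the tissue and age in their labels, without use of any measured value: testis of 1-week-old and 4-week-old males (2 arrays, called young) and testis of 2-month-old, 4-month-old and 2-year-old males (3 arrays, called older), 5 of the 80 arrays of the series. Each age was 1 untreated male, so ages stood in for replicates and each test measured only the spread between these samples, which holds age as well as animal. All animals were obtained from 1 breeder. The 2-year-old male was kept for most of its life at another site on another feed and was euthanised with another pentobarbital product, and these differences cannot be told apart from its age. RNA was taken from frozen, crushed whole tissue, so each value is a sum over all cell types of the organ.

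In the testis, germ cells develop inside seminiferous tubules, in contact with Sertoli cells and enclosed by contractile peritubular cells, while Leydig cells between the tubules make androgens. Spermatogonia divide by mitosis, spermatocytes recombine their chromosomes in meiosis, and spermatids replace their histones with transition proteins and then protamines while the acrosome and the flagellum are built. Before puberty the tubules contain Sertoli cells and spermatogonia but no spermatids, and the Sertoli cells secrete anti-Müllerian hormone.

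Each array measured 23722 features by the fluorescence of 1 dye, and each feature is called a gene below. Of the symbols, 765 belonged to more than 1 feature, so some genes are counted more than once. A named gene is shown by 1 feature, the one labelled with its symbol on the array, otherwise the one with most probes. A level is given below as the log2 of the quantile-normalised median intensity, and the 5 values of a gene are listed by age from the youngest animal, the 1-week-old, to the oldest, the 2-year-old, so that the first 2 are young and the last 3 older. The share of genes above background was between 64.6% and 67.9% on the 5 testis arrays, and the median intensity of their gene spots was between 60 and 89 before normalisation. Each testis array lay on a slide of its own, and the 2-year array belonged to a scan session that held only 2-year samples. Levels of 8 repeat arrays of 1 kidney sample differed by a median SD of 0.11 log2 units, which is the technical error within a scan session. All these repeats were scanned in the same session and the testis arrays in several, so the error between testis arrays can be larger. The testis label held against marker genes: INSL3, a Leydig cell hormone, was saturated on all 5 arrays, and all 7 spermatid markers (PRM1, PRM2, TNP1, TNP2, ACRV1, AKAP4 and ODF1) were higher in each older testis than in either young one. CLDN11, a junction protein of Sertoli cells, and CD68 of macrophages were above background on none of the 5 arrays. Of the 19 epididymis genes, 8 were above background on all 5 testis arrays and 5, among them LCN5 and LCN8, on none. Over all 23722 genes these counts were 13185 and 5480, so the epididymis counts are no check of the label.

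Across all genes, 3878 rose from the young to the older testis (16.3% of the genes tested) and 6506 fell (27.4%), by limma with an adjusted p under 0.05. At least 4-fold changes were reached by 1772 genes upwards (7.47%) and by 698 genes downwards (2.94%). Changes were ranked among genes with a symbol that passed, without overlap between classes and with the brighter class above background. The 12 largest gains were each measured at 2241-fold or more. The largest loss, that of the semaphorin receptor PLXNB3 (9.77, 7.57, 2.97, 2.54 and 2.80), was measured at 59.6-fold. One class was below background in these genes, so the folds are measured values and not bounds. The median over all genes was -0.21 log2 units, and it was -0.04 when an offset of 50 was added to the intensities, so a list median is read against the median of all genes. Likewise, a list count is read against the 16.3% of all genes that rose and the 27.4% that fell. Among the 1772 genes that rose at least 4-fold, 640 were below background on both young arrays, 240 were first above background at 4 weeks and 892 were already above it at 1 week. In 963 of the 1772 genes the older testis mean was also at least 4-fold above the highest of 63 samples of the 7 organs other than gonads. The 1772 genes were chosen on the same older testis values, so this count is only a description. The share over all genes was not counted.

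The step between 4 weeks and 2 months held most of these differences. Between these ages 1668 genes were at least 4-fold higher and 369 at least 4-fold lower, against 276 and 99 between 1 week and 4 weeks (1.16% and 0.417% of all genes). Later steps held fewer, with 40 genes higher and 40 lower from 2 months to 4 months, and 74 higher and 48 lower from 4 months to 2 years. Each step compared 1 array with 1 array and has no replicate check. Every step between successive ages also crossed slides and scan sessions, which cannot be told apart from age. The 1-week and the 2-month arrays were scanned in the same session, and within it 1981 of all genes were at least 4-fold higher at 2 months and 1099 at least 4-fold lower.

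**Figure D1:**
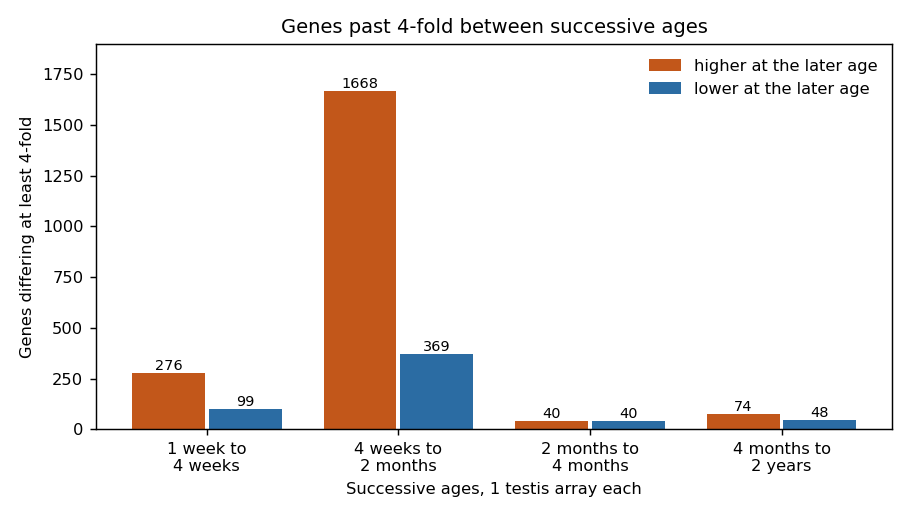
Number of genes differing at least 4-fold between successive ages of the testis, with 1 array at each age. Orange bars count genes higher at the later age and blue bars genes lower at the later age, and the step from 4 weeks to 2 months holds 1668 higher and 369 lower genes.

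Genes of sperm chromatin had the highest median of the 22 lists. Of 11 measured members of this list, 9 rose, none fell, and the median difference was 7.42 log2 units (all genes -0.21). PRM1, the first of the protamines that compact sperm DNA, measured 3.13 and 2.83 on the young arrays, and PRM2 measured 2.51 and 3.09. On the older arrays both stood at 15.93 or above. Both were below background on the young arrays and saturated on all older ones, so their folds are not exact. The measured older level was 8171-fold higher for PRM1 and 9234-fold higher for PRM2 (limma, adjusted p = 1.5e-06 and 2.05e-06). TNP1, the transition protein that precedes the protamines, measured 3.07 and 3.00 on the young arrays and was saturated on the older ones. Its measured level was 7825-fold higher in the older testis. TNP2, the other transition protein, was above background at 1 week already, and its levels of 7.02, 6.85, 13.36, 14.47 and 13.29 rose by 6.77 ± 0.38 log2 units (SE, limma, adjusted p = 9.33e-05). The 2 members that did not pass, the testis histones HIST1H2BA (3.00, 8.12, 10.08, 9.12 and 9.79) and HIST1H1T (4.99, 8.47, 9.14, 9.01 and 9.20), were those with a high level at 4 weeks. PRM1, PRM2, PRM3 and TNP1 differed by at most 0.58 log2 units between 1 week and 4 weeks.

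Other genes with the largest gains, ranked by size among genes with a symbol that passed, were below background in the young testis too. SMCP, a protein of the sperm mitochondrial capsule, measured 2.17, 2.11, 14.72, 14.78 and 14.79, 6303-fold higher in the older testis (limma, adjusted p = 1.5e-06). TSSK2, a kinase of spermatids, measured 2.13, 2.54, 14.08, 14.57 and 14.03, 3801-fold higher (limma, adjusted p = 2.71e-06). ZNRF4, a ring finger protein, measured 2.17, 2.11, 15.18, 15.14 and 15.44, 8872-fold higher. HMGB4, PRM3, UBQLNL, SPATA3, CCIN and IRGC completed these 12 gains, with measured folds from 2241 to 3609. None of the 12 was above background on a young array.

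The acrosome, the enzyme-filled cap of the sperm head, was represented by 40 measured genes, of which 34 rose and none fell, with a median of 5.41 log2 units. ACR, the acrosomal protease acrosin, measured 2.99, 6.35, 13.39, 12.90 and 13.23 and rose by 8.51 ± 0.89 log2 units (limma, adjusted p = 0.00106). ACTL7A, an actin-related protein of the sperm head, measured 2.66, 2.90, 12.60, 12.48 and 12.42, 843-fold higher in the older testis. ACRBP, the binding protein of proacrosin, measured 7.38, 9.65, 14.88, 14.85 and 14.75 and rose by 6.31 ± 0.61. The older arrays were close to each other in these 3 genes, and the young arrays differed from each other in ACR and ACRBP only. Genes that act at fertilisation rose too. IZUMO1, which the sperm needs to bind the egg, measured 3.78, 3.72, 10.11, 8.96 and 10.12, and PLCZ1, which triggers calcium waves in the egg, measured 4.16 and 4.24 in the young testis and at least 10.97 in the older one. The 6 members that did not pass differed by -0.52 to 0.43.

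The sperm flagellum list held 53 measured genes, of which 46 rose and none fell, with a median of 3.01 log2 units. AKAP4, the main scaffold of the fibrous sheath, measured 3.31, 2.83, 12.78, 13.56 and 13.10, 1081-fold higher in the older testis (limma, adjusted p = 7.1e-06). AKAP3, a partner of AKAP4, was above background in the young testis and rose from 7.36 and 7.85 to 14.18, 13.82 and 13.95. CATSPER1, a pore subunit of the sperm calcium channel, measured 3.54, 2.53, 9.19, 8.33 and 9.14, 57.9-fold higher. ODF1, an outer dense fibre protein, had a smaller range on this array, with 3.35, 3.07, 6.19, 6.37 and 6.33, a measured 8.51-fold gain. Among axoneme genes that other ciliated cells also use, SPAG6 rose by 4.79 ± 0.77 and CCDC39 by 1.24 ± 0.24 log2 units. DNAI1, below background in the young testis, was measured at 4.66-fold higher or more, which is not a strict bound. The counts for acrosome and flagellum stayed between 32 and 34 and between 42 and 46 when any 1 array was left out.

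**Figure D2:**
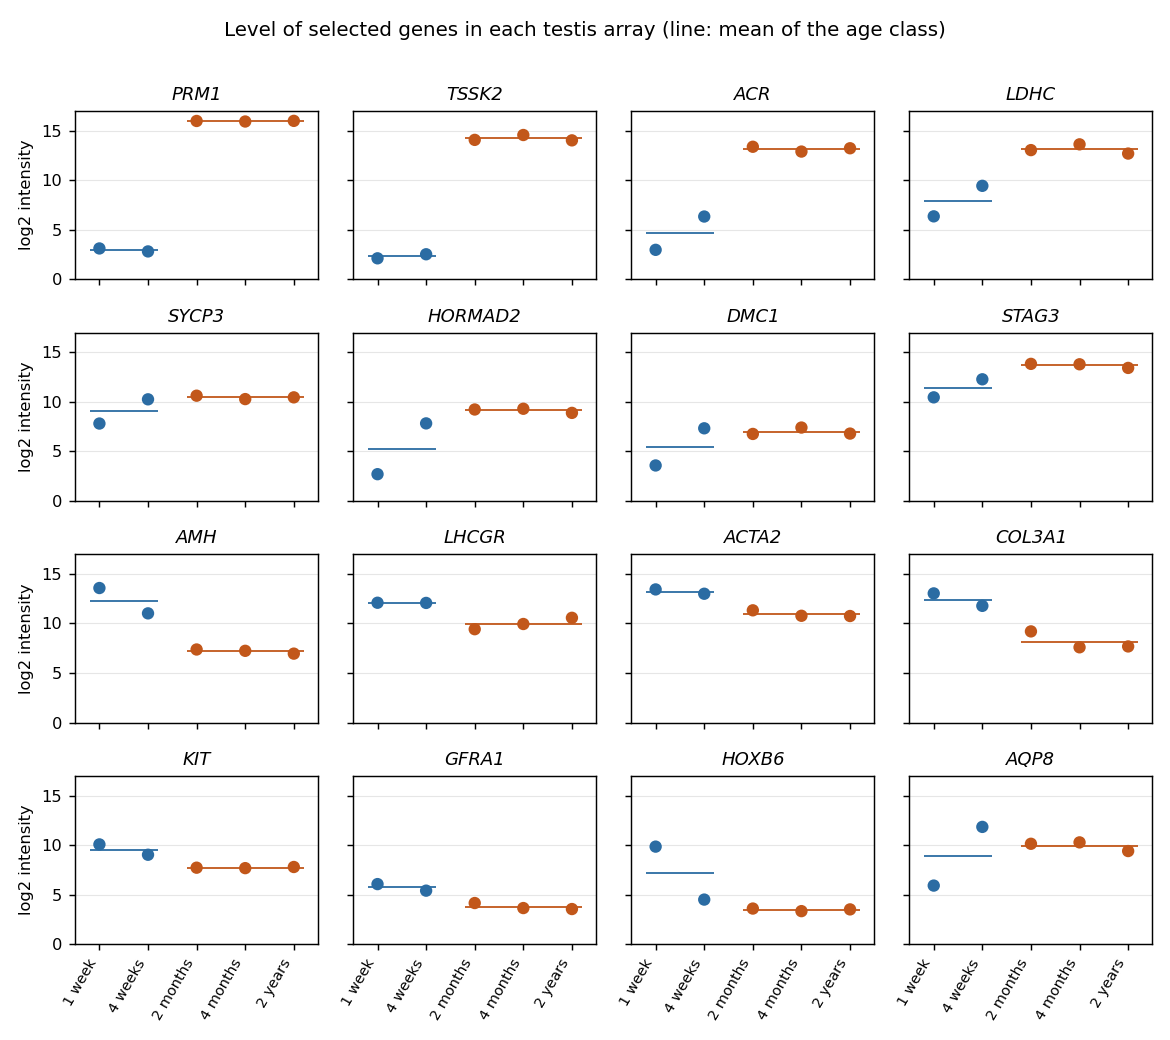
Level of 16 genes on each of the 5 testis arrays, as log2 normalised intensity. Blue points are the 1-week and 4-week arrays, orange points the 2-month, 4-month and 2-year arrays, and lines are class means; PRM1 and TSSK2 rise only at 2 months, DMC1 and SYCP3 are at the older level by 4 weeks, and AMH is lower at 4 weeks than at 1 week and lower again from 2 months.

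Genes that regulate spermatid development were split. Of 29 measured members, 16 rose and 4 fell, with a median of 1.15 log2 units. YBX2, a binder of stored germ cell mRNA, measured 7.50, 10.86, 15.04, 15.93 and 15.06 and rose by 6.17 ± 0.92 (limma, adjusted p = 0.00328). GTF2A1L, a germ cell form of a general transcription factor, measured 3.02, 4.30, 7.09, 7.42 and 7.20 and rose by 3.58 ± 0.38. CREM, a transcription factor of round spermatids, rose less, from 3.85 and 4.27 to 5.25, 5.46 and 5.26 (1.26 ± 0.20 log2 units, limma, adjusted p = 0.00414). The 4 that fell were PYGO2, MSL3, JMJD1C and BRWD1, which are chromatin factors also used outside the testis, and without the 4-week array BRWD1 and without the 1-week array MSL3 did not pass (limma, adjusted p = 0.0547 and 0.0714). PYGO2 fell from 11.95 and 12.04 to 10.62, 10.61 and 10.77.

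Energy metabolism of sperm gave 18 genes that rose and 2 that fell among 30, with a median of 1.57 log2 units. GAPDHS, the glycolytic enzyme of the sperm tail, measured 2.20, 2.48, 8.95, 9.44 and 9.14, 114-fold higher in the older testis. LDHC, the lactate dehydrogenase of germ cells, measured 6.37, 9.44, 13.05, 13.63 and 12.70 and rose by 5.22 ± 0.85 (limma, adjusted p = 0.00432). GPX4, a selenoprotein that also forms structural material in sperm, rose from 9.28 and 10.07 to 13.51, 13.97 and 13.53. LDHB, the form of lactate dehydrogenase common in other tissues, fell from 11.52 and 11.08 to 9.63, 9.51 and 9.28. COX8C, a testis subunit of cytochrome oxidase, did not pass and measured 10.58, 12.58, 12.46, 12.00 and 11.71, so its 4-week level lay with the older ones, and it passed upwards without the 4-week array (1.48 log2 units).

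Many germ cell genes have a relative that is used in most tissues, and 30 such pairs were set side by side. In 10 pairs the testis form rose and the widely used form fell, in 7 the testis form rose and the other did not pass, and in 3 both rose. The testis form did not pass in the other 10 pairs, where the widely used form fell in 7, rose in 1 and did not pass in 2. No testis form fell. GAPDH, the glycolytic relative of GAPDHS, fell from 10.02 and 10.14 to 8.23, 8.19 and 8.92 (-1.63 ± 0.27 log2 units, limma, adjusted p = 0.00441). For the cohesin subunits of chromosome pairing, STAG3 of meiosis rose from 10.46 and 12.28 to 13.84, 13.80 and 13.43, while STAG2 of somatic cells fell by 1.84 log2 units. RPL10L, a ribosomal protein of germ cells, measured 4.25, 8.99, 12.49, 12.57 and 12.19, while RPL10 fell by 1.90. CETN1, the centrin of the male germ line, measured 3.44, 7.43, 12.85, 13.64 and 13.06, whereas CETN2 differed by -0.59 and did not pass. Relatives can bind each other's probes, and 9 of these forms, among them LDHC, ATP1A4 and RPL10, were measured only by probes whose names mark them as cross-hybridising. In the 21 pairs with other probes for both forms, 5 had a testis form that rose and a widely used form that fell. CCNA1, a cyclin of meiosis, rose by 1.86 over all its probes but differed by 0.10 without the marked ones (limma, adjusted p = 0.711).

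**Figure D3:**
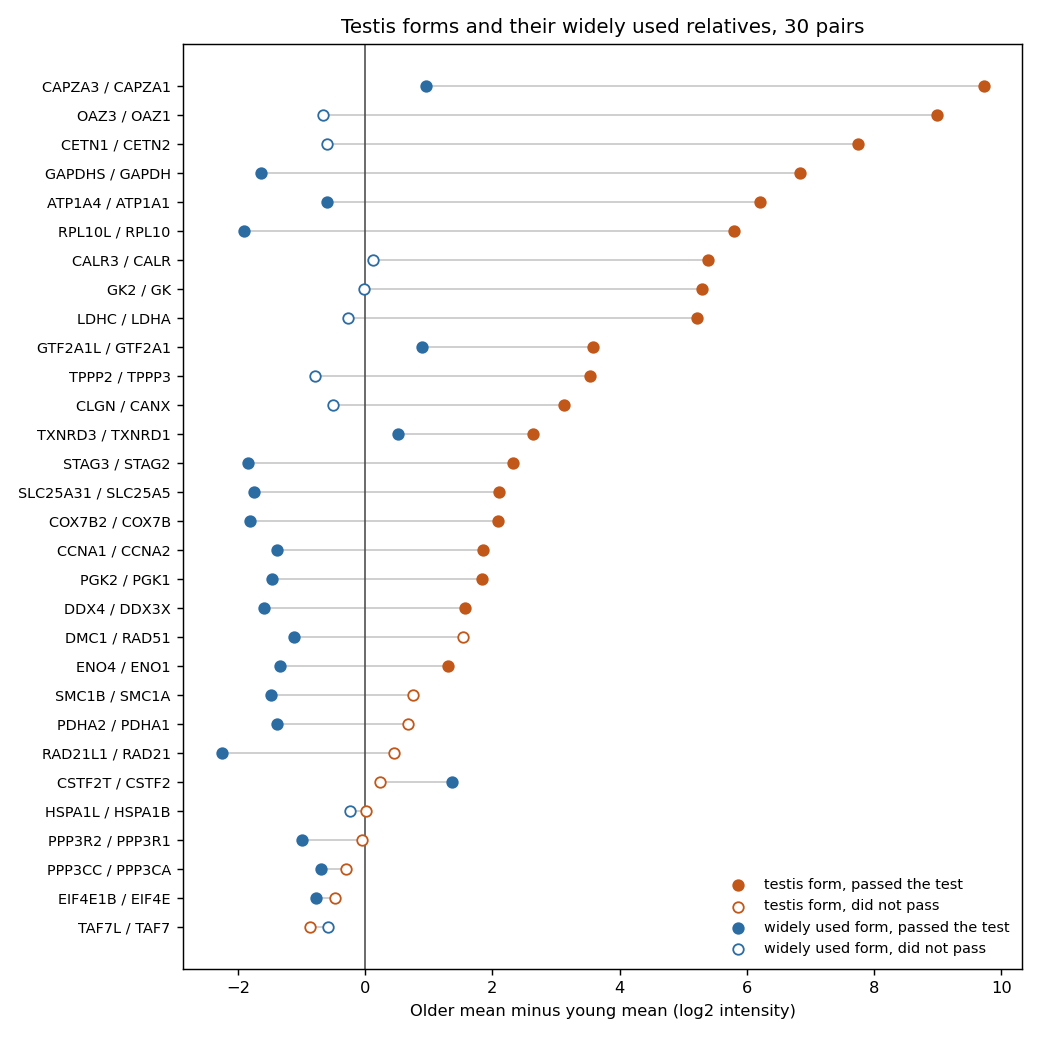
Difference between older and young mean in log2 intensity for 30 pairs of a testis form (orange) and its widely used relative (blue). Filled points passed limma at an adjusted p under 0.05 and open points did not; in 10 pairs both points are filled and lie on opposite sides of 0.

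Many genes of somatic testis cells were lower in the older testis, where 27.4% of all genes fell and 16.3% rose (median -0.21 log2 units). Of 27 genes of basic cell upkeep 15 fell and 2 rose, with a median of -0.78, so falls were not particular to the somatic lists. Each level is relative to the whole array of a whole tissue. Fewer cells of a type, less RNA per cell and more RNA from other cells therefore cannot be told apart. Of 41 Sertoli cell genes, 21 fell and 2 rose, with a median of -0.89 log2 units. AMH, anti-Müllerian hormone, measured 13.58, 11.02, 7.38, 7.24 and 6.96, a 34.5-fold lower older level (-5.11 ± 0.69 log2 units, limma, adjusted p = 0.00234). Its receptor AMHR2 measured at least 9.36 on the young arrays and 5.41, 5.35 and 5.40 on the older ones, and fell by 4.30 ± 0.23 log2 units (limma, adjusted p = 7.77e-05). AMH was already 5.88-fold lower at 4 weeks than at 1 week, while AMHR2 differed by 0.64 between these arrays. The transcription factor SOX9 fell from 9.62 and 9.88 to 7.45, 7.99 and 7.11, and WT1 from 10.22 and 10.47 to 8.47, 8.53 and 8.09. FSHR, the receptor for follicle-stimulating hormone, fell from 6.31 and 6.55 to 4.86, 5.00 and 4.66. Losses of SOX9, WT1 and FSHR were between 1.59 and 2.23 log2 units, smaller than those of AMH and AMHR2. The 2 genes that rose were TF, transferrin (4.21, 3.10, 5.82, 5.56 and 6.53), and SHBG, the steroid carrier (3.56, 3.33, 4.26, 4.39 and 4.42), both below background on the young arrays. DMRT1, a sex-determination factor of Sertoli cells and spermatogonia, measured 9.25, 10.42, 9.26, 8.67 and 8.45 and did not pass (limma, adjusted p = 0.0819).

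Leydig cell and steroid synthesis genes gave 19 that fell and 3 that rose among 41, with a median of -0.79 log2 units, and 12 that fell without the 1-week array. LHCGR, the receptor for luteinising hormone, measured 12.09, 12.08, 9.42, 9.95 and 10.57 and fell by 2.10 ± 0.34 (limma, adjusted p = 0.00417). CYP11A1, the enzyme that starts steroid synthesis, measured 12.60, 12.84, 10.99, 10.39 and 11.40 and fell by 1.79 ± 0.31. HSD17B3, which makes testosterone, measured 9.42, 9.00, 7.73, 7.38 and 6.39, and HSD11B2, which inactivates cortisol, measured 13.63, 13.15, 10.77, 9.52 and 8.08. Both were lowest at 2 years, whereas LHCGR, CYP11A1 and STAR had their highest older level there. STAR, the cholesterol carrier into mitochondria, measured 11.98, 11.96, 10.12, 10.13 and 11.49 and passed narrowly (limma, adjusted p = 0.0434), but not without the 1-week, 4-week, 2-month or 4-month array (adjusted p between 0.111 and 0.129). INSL3 measured at least 15.91 and was saturated on every array, so no change could be seen. SRD5A1, which converts testosterone to its more active form, rose, with levels of 5.46, 6.67, 7.58, 8.03 and 8.60 (2.01 ± 0.44, limma, adjusted p = 0.0124). Sterol synthesis genes, which supply cholesterol, had a median of -0.32 (all genes -0.21). Of 27 such genes 5 fell and 1, NSDHL, rose, against 27.4% and 16.3% of all genes. Without the 1-week array 1 of them fell, without the 2-month array 3 and without the 2-year array 8. At 4 weeks their median already lay 0.51 below 1 week (all genes -0.03).

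Peritubular and vascular genes fell as well, and the counts here stand beside 27.4% of all genes that fell and 16.3% that rose (median -0.21). Of 20 peritubular smooth muscle genes 13 fell and 1, RGS5, rose (not so without any 1 of the 5 arrays, limma, adjusted p between 0.0585 and 0.096), with a median of -1.41 log2 units. ACTA2, smooth muscle actin, measured 13.44, 13.00, 11.33, 10.78 and 10.75, and PDGFRB, a growth factor receptor of mural cells, measured 10.84, 9.78, 8.00, 7.61 and 8.04. Of 21 endothelial genes 11 fell and 1 rose, with a median of -1.22 and with 7 that fell without the 1-week array. CDH5, the cadherin of endothelial junctions, fell from 9.08 and 7.86 to 6.24, 5.76 and 6.43. FLT1, a receptor for vascular endothelial growth factor, went the other way, with 6.47, 6.49, 9.21, 8.75 and 8.96 (2.49 ± 0.20, limma, adjusted p = 0.000398). Macrophage and leukocyte genes fell in 11 of 26 and rose in 2, with a median of -0.60. C1QB, a complement component of macrophages, measured 12.10, 11.81, 9.77, 8.37 and 8.91, and CSF1R, the receptor for macrophage colony-stimulating factor, measured 9.78, 8.95, 7.46, 6.46 and 7.17.

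Extracellular matrix genes held some of the largest losses, with 23 of 44 that fell, 12 of them at least 4-fold, and 2 that rose. Over all genes 27.4% fell, 2.94% fell at least 4-fold and 16.3% rose (median -0.21). COL3A1, a fibrillar collagen, measured 13.04, 11.78, 9.20, 7.60 and 7.69 and fell by 4.25 ± 0.59 (limma, adjusted p = 0.00261). COL1A2 measured 13.69, 13.30, 10.44, 9.07 and 8.53, and the proteoglycan BGN measured 13.87, 13.06, 10.84, 10.12 and 10.35. In male samples of the 7 other organs COL3A1 also differed by a mean of -1.74 and COL1A2 by -2.25, whereas BGN differed by -0.44. TNC, a matrix protein, did not pass and differed within the older class, with 4.64, 3.75, 3.52, 8.04 and 7.35. Genes of fetal growth and imprinted genes fell in 17 of 32 and rose in 2, with a median of -1.08. MEG3, an imprinted noncoding RNA, measured 9.85, 8.98, 7.11, 6.14 and 6.36, and PLAGL1, an imprinted growth regulator, measured 8.09, 6.75, 5.19, 4.47 and 4.63. MAGEL2, another imprinted gene, stood at 7.92 and 7.90 in the young testis and at 5.51, 4.66 and 4.20 in the older one.

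**Figure D4:**
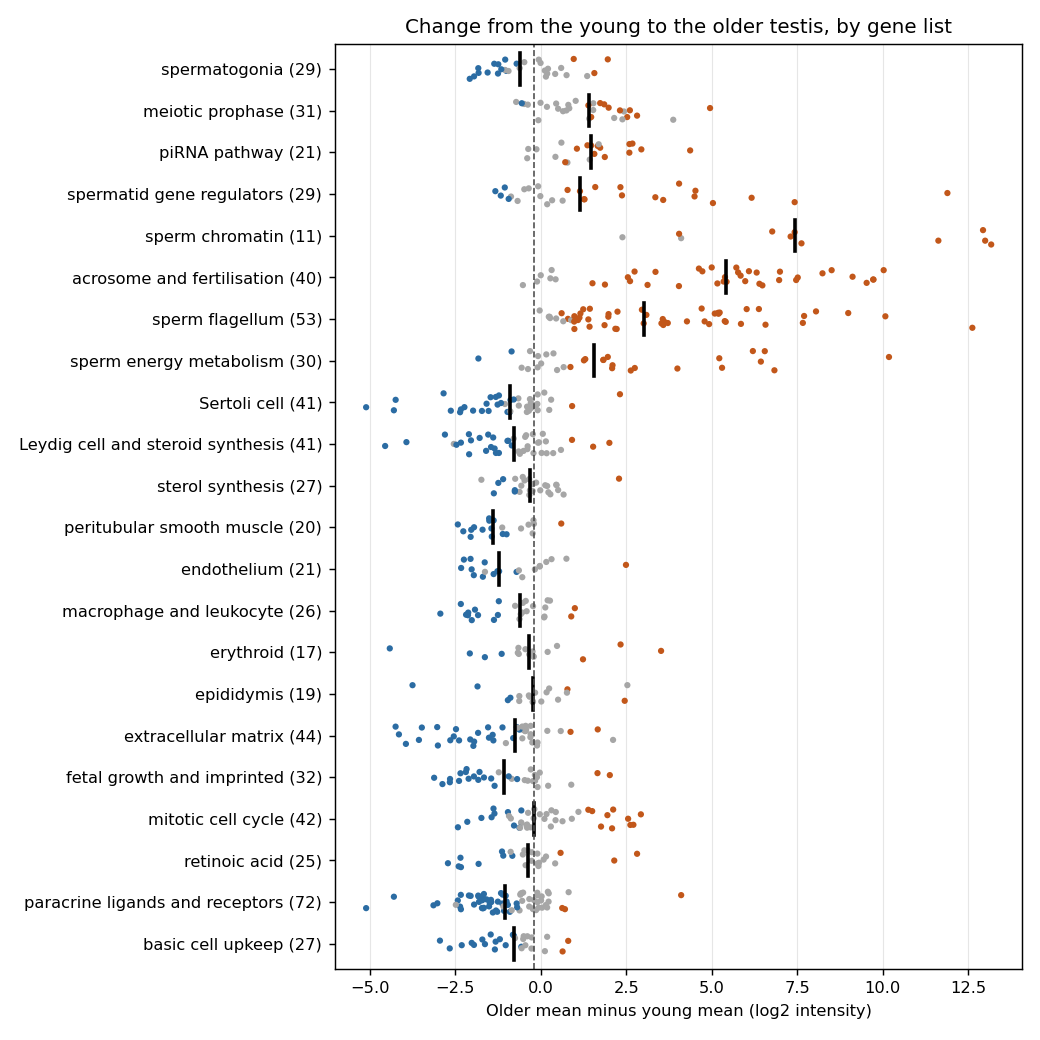
Difference between older and young mean in log2 intensity for every measured member of 22 gene lists (number of members in brackets). Orange points rose and blue points fell by limma at an adjusted p under 0.05, grey points did not pass, black bars are list medians and the dashed line is the median of all genes, -0.21; sperm chromatin has the highest median, 7.42, and peritubular smooth muscle the lowest, -1.41.

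Genes of signals between the cell types fell more often than they rose, which also held for all genes (27.4% and 16.3%, median -0.21). Of 72 paracrine ligands and receptors 41 fell and 3 rose, with a median of -1.06 log2 units. For basic cell upkeep it was 15 and 2 of 27, with a median of -0.78, so falls were not particular to signalling genes. KIT, the stem cell factor receptor of differentiating spermatogonia and Leydig cells, measured 10.07, 9.02, 7.72, 7.67 and 7.79 and fell by 1.82 ± 0.32 (limma, adjusted p = 0.00536). GFRA1, the receptor by which spermatogonial stem cells sense Sertoli cell factors, measured 6.06, 5.40, 4.15, 3.65 and 3.55, 3.87-fold lower. The Notch ligand JAG1 fell from 8.72 and 8.40 to 6.83, 6.65 and 6.71. LEFTY2, a secreted antagonist of Nodal signalling, was the exception in size, with 5.26, 5.33, 8.89, 10.02 and 9.30 (4.11 ± 0.34, limma, adjusted p = 0.000434). Among 25 retinoic acid genes 8 fell and 3 rose, with a median of -0.38 log2 units, and these shares lie near those of all genes (27.4% and 16.3%).

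Spermatogonial genes gave more falls than rises, as did all genes (27.4% fell and 16.3% rose, median -0.21). Of 29 measured members 12 fell and 3 rose (BCL6B, DDX4 and ETV5), with a median of -0.62. Without the 4-week array 10 fell and 4 rose, with a median of -0.38. ETV5 did not pass without the 4-week, 2-month or 4-month array (limma, adjusted p between 0.0682 and 0.116). UCHL1, an abundant hydrolase of spermatogonia and neurons, fell from 9.78 and 9.63 to 7.98, 7.83 and 7.07, and NANOS3, a germ cell survival factor, from 8.10 and 7.72 to 6.99, 6.95 and 6.77. DDX4, a helicase of germ cells at several stages, rose from 3.19 and 3.76 to 5.08, 5.05 and 5.00 (1.57 ± 0.22, limma, adjusted p = 0.00262).

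Mitotic cell cycle genes moved both ways, with 10 of 42 that rose and 10 that fell (all genes 16.3% and 27.4%). Their median was -0.20 (all genes -0.21). TTK, a spindle checkpoint kinase, rose from 6.49 and 6.21 to 9.07, 9.59 and 9.18, and CCNE1, the cyclin of entry into S phase, measured 5.79, 7.15, 9.18, 9.25 and 9.10. MCM3, a subunit of the replicative helicase, fell from 7.23 and 6.48 to 4.87, 4.15 and 4.28, and the cell cycle inhibitor CDKN1B from 8.72 and 8.72 to 6.84, 7.03 and 7.08. Without the 1-week array 5 fell, and with the spread of all male samples 5 rose and 3 fell. Genes of basic cell upkeep fell in 15 of 27, with a median of -0.78. TUBB, a tubulin, measured 13.34, 12.41, 9.92, 9.88 and 9.98, and HPRT1 measured 11.19, 11.94, 9.76, 9.63 and 9.25.

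Markers of cells from outside the tubules were examined beside these results, and their counts are read against all genes, of which 27.4% fell and 16.3% rose. Of 17 erythroid genes 4 fell and 3 rose, with list means of 5.04 and 4.80 in the young testis and 4.50 to 4.77 in the older one, and 2 fell without the 4-month array or without the 2-year array. HBB, the beta chain of haemoglobin, measured 14.35, 13.50, 10.27, 8.72 and 9.54, and in the other male organs it also differed by -1.76. HEMGN, a nuclear protein of blood precursors and testis, rose from 4.73 and 4.65 to 8.46, 8.01 and 8.15. Of 19 epididymis genes 4 fell and 2 rose, with list means of 5.12 and 5.18 against 4.77 to 5.23, and 1 fell without the 1-week array. ADAM7, an epididymal protein, measured 2.97, 4.19, 8.06, 7.85 and 2.42, so it was above background at 2 months and 4 months but not at 2 years. The part of blood or attached epididymis in any result was not tested.

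What already differed at 4 weeks was read from 1 array against 1 array. The correlation across genes between the 1-week and the 4-week arrays was r = 0.974, and that between the 4-week array and the older ones was 0.846 to 0.864. Genes are not independent replicates, and these values describe the arrays only. Among the 276 genes that were at least 4-fold higher at 4 weeks than at 1 week, 153 were called higher in the older testis, 122 were not called and 1 was called lower. The 4-week array counts as young in that call, so a gene that had reached its older level by 4 weeks tends to fail it.

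Meiotic genes had the highest list median at 4 weeks. Of 31 measured genes of meiotic prophase, 28 were higher at 4 weeks than at 1 week and 14 were so at least 4-fold, against 1.16% of all genes, with a median of 1.69 log2 units. HORMAD2, a protein of unpaired chromosome axes, measured 2.71, 7.83, 9.23, 9.31 and 8.89. DMC1, the recombinase of meiosis, measured 3.59, 7.34, 6.77, 7.41 and 6.80. SYCP3, a component of the synaptonemal complex that joins paired chromosomes, measured 7.82, 10.26, 10.63, 10.28 and 10.46, and SYCP1, its transverse filament, measured 4.22, 7.30, 6.69, 7.02 and 6.63. In DMC1, SYCP3 and SYCP1 the 4-week level lay within, above or just below the range of the older arrays, and HORMAD2 had covered most of its difference. These 4 genes did not pass the comparison of classes (limma, adjusted p between 0.0586 and 0.357), in which the 4-week array counts as young. In that comparison 10 of the 31 rose and 1 fell, and without the 4-week array 23 rose and none fell, while 6 rose without the 2-month array and 6 without the 4-month array. SYCE3, a central element of the complex, was among the 10 and measured 4.59, 8.30, 11.36, 11.45 and 11.38 (4.95 ± 0.98, limma, adjusted p = 0.00855). REC8, the cohesin of meiosis, measured 8.35, 10.04, 12.38, 11.34 and 12.31. SPO11, which makes the breaks that start recombination, was above background on none of the 5 arrays.

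Genes of the piRNA pathway, which silences transposons in germ cells, lay between meiotic and spermatid genes. Of 21 measured members 13 rose and none fell, with a median of 1.47, and at 4 weeks their median was 0.76 above 1 week. GTSF1 measured 5.00, 6.69, 10.34, 10.13 and 10.16 and rose by 4.37 ± 0.47 (limma, adjusted p = 0.00113). MAEL measured 7.23, 8.14, 10.33, 10.30 and 10.19, and PIWIL1, a piRNA-binding Argonaute, 5.13, 6.85, 7.85, 8.05 and 7.69. Both were intermediate at 4 weeks, and PIWIL1 did not pass without the 2-month or the 4-month array (limma, adjusted p = 0.0617 and 0.0703). Over all measured members of each list, called or not, the median difference between 4 weeks and 1 week was 1.69 for meiotic prophase, 0.76 for the piRNA pathway, 0.41 for spermatid regulators, 0.33 for the acrosome, 0.19 for the flagellum and -0.07 for sperm chromatin. For somatic lists it was -0.04 for Sertoli cells, -0.07 for Leydig cells, -0.54 for extracellular matrix, -0.52 for peritubular muscle and -0.51 for endothelium.

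**Figure D5:**
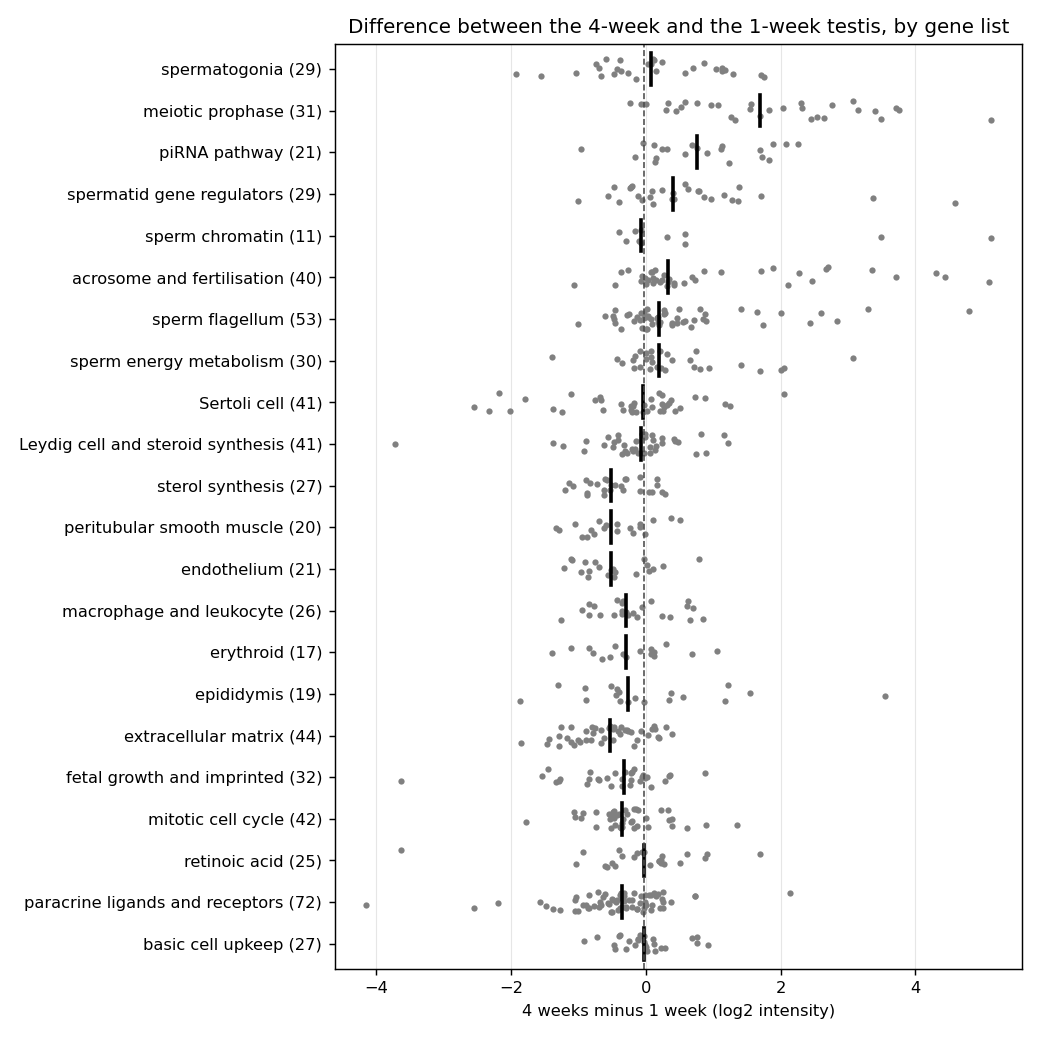
Difference between the 4-week and the 1-week testis array in log2 intensity for every measured member of the 22 lists, with black bars for list medians and a dashed line for the median of all genes, -0.03. There is 1 array per age and no test; meiotic prophase has the highest median, 1.69.

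Single genes with the largest rise to 4 weeks came from several groups. ANKRD35, an ankyrin repeat protein, measured 5.30, 11.23, 14.83, 15.06 and 14.78. PHF7, a chromatin reader of the male germ line, measured 4.78, 9.79, 13.66, 14.01 and 13.59, and ZPBP, a zona pellucida binding protein of the acrosome, measured 4.58, 9.67, 12.57, 12.57 and 12.53. PHF7 and ZPBP had covered at least 50% of their way at 4 weeks. ANKRD35 was saturated on the older arrays, so its share of the way at 4 weeks is not known. ANKRD35 did not pass without the 4-month array (limma, adjusted p = 0.0537), nor ZPBP without the 2-month or the 4-month array (adjusted p = 0.0539 and 0.0587). AQP8, a water channel, measured 5.91, 11.83, 10.13, 10.27 and 9.40, and GPR55, a lipid receptor, 4.49, 9.62, 8.20, 8.23 and 7.23, so both had their highest level at 4 weeks. Their call depended on the young array used: without the 1-week array both were lower in the older testis, by -1.90 and -1.73, and without the 4-week array both were higher, by 4.02 and 3.40 log2 units. Genes with the largest drop included developmental regulators. HOXB6, a homeobox factor, measured 9.84, 4.50, 3.60, 3.34 and 3.51, HOXA5 measured 7.15, 2.81, 2.13, 1.82 and 2.67, and the signalling protein WNT4 measured 7.04, 2.89, 2.08, 2.80 and 2.55. Only the 1-week array was high in these 3, and they did not pass the comparison of classes (limma, adjusted p between 0.0757 and 0.117). Just 9 genes were at least 4-fold higher at 4 weeks than at 1 week and then at least 4-fold lower at 2 months, and 5 did the reverse.

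Within the older class the arrays were alike, with correlations across genes of 0.982 to 0.988. The spread of a gene over the 3 older arrays had a median SD of 0.21 log2 units, close to the median difference of 0.27 between the young arrays. TSSK2, SMCP and ACTL7A, which were not saturated, differed by at most 0.54 log2 units between the 3 older ages, and for the saturated PRM1, PRM2 and TNP1 no difference between these ages could be seen.

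The comparison with other organs asked which changes in testis differed from those elsewhere. The mean change of the 7 other organs, in male samples of the same ages, was subtracted from that of the testis, with 40 samples in 1 limma fit. The testis change was higher than theirs in 3844 genes (16.2%) and lower in 6029 (25.4%). Of the 1772 genes that rose at least 4-fold in testis, 1768 passed this test upwards, and of the 698 that fell at least 4-fold, 655 passed it downwards. These genes were chosen on the same testis values, so the counts are a description. In 492 of the 698 the mean of the other organs was lower at the older ages too, in 32 of them at least 2-fold. The share of all genes lower in the other organs was not counted. Their median change there was 0.03 log2 units, so many genes outside the 698 were lower there too. Among meiotic genes 17 of 31 passed upwards and 1 downwards, and among sperm chromatin genes 11 of 11 passed upwards. Erythroid genes had a median change of -1.11 in the other organs, against -0.34 in testis, and mitotic genes -0.81 against -0.20. Of the mitotic genes 11 passed upwards and 2 downwards in this test. CCNB2, a mitotic cyclin, measured 9.93, 9.62, 11.78, 12.50 and 11.41 in testis, a difference of 2.12, while its mean change in the other organs was -1.73.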

How the data were processed

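Total RNA was labelled with Cy3 and hybridised to custom Agilent arrays with 61289 gene spots for 49280 probes. Per the file headers, the deposited values are unnormalised scanner intensity of each spot (Agilent Feature Extraction 11.5.1.1, from the submitters' processing notes); the submitters also deposited a table of log2 normalised values, used as an alternative. The median signal was background-corrected by normexp without offset and quantile-normalised over all 80 arrays (limma 3.58.1, R 4.3.3), then averaged per probe and gene. Of 23722 genes, 15267 had a symbol, of which 2453 came through accessions in the RefSeq table of assembly Sscrofa11.1, and 8455 had none. Classes were compared with lmFit and eBayes, two-sided, with Benjamini-Hochberg adjustment over all genes. On simulated data the fit recovered 0% of genes changed by 1, 94.5% by 2 and 100% by 4 log2 units. Far fewer genes were changed there than passed here, which makes the adjusted p stricter, so these rates do not describe this fit. In the data 10384 genes passed, 7280 of them by at least 2-fold, so smaller changes passed too, but some can be missed. For a gene below background in all arrays of a class, or saturated, the fold is the measured one and not a strict bound. The number of arrays limits the precision. Spike-in levels ranged over 3.35 log2 units between testis arrays and were not used for scaling. Quantile normalisation makes every difference relative to the whole array. The lists and named genes were chosen with earlier results of these data known: list members that show what a list did, and the 12 largest changes each way, the 10 largest 4-week differences each way, the 6 largest differences from other organs each way and the 6 highest and lowest at 4 weeks. All these rankings took only genes with a symbol, and the 12 largest changes also had to pass, without overlap and with the brighter class above background. Sequences were not used here.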

Additional observations from a re-analysis of the deposited data

Results flagged for a closer look

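The test of the testis change against the mean change of the 7 other male organs passed in 9873 genes (limma, adjusted p under 0.05). The largest measured differences between these changes were 12.64 log2 units for ZNRF4, 12.51 for PRM2, 12.47 for SMCP, 12.33 for TNP1, 11.68 for TSSK2 and 11.59 for HMGB4. All 6 were below background on both young testis arrays, and PRM2 and TNP1 were saturated on the older ones, so these values are not exact and their order is not settled. Downwards they were -5.28 for AMH, -4.90 for PLXNB3, a semaphorin receptor, -4.89 for EPN3, an endocytic adaptor, -4.54 for DUSP26, a phosphatase, -4.31 for GSTA1, a glutathione transferase, and -4.24 for COL9A2, a collagen of cartilage. A further 8 genes of the lists moved in testis against a mean change of at least 2-fold in the other organs. Upwards in testis and downwards elsewhere were HEMGN (difference 4.90), RHAG (4.05), TTK (4.28), CCNB2 (3.85), CDC20 (3.41), BIRC5 (3.11) and PLK4 (2.77). RHAG is a membrane protein of red cells, and the others but HEMGN act in mitosis. CD74, the invariant chain of antigen presentation, fell in testis and was higher elsewhere (-3.07). With the spread of all male samples, the testis change itself did not pass for CCNB2, CDC20, BIRC5, PLK4 and RHAG (adjusted p between 0.0572 and 0.177). RHAG did not pass either without the 1-week, 4-week or 2-month array (adjusted p between 0.0653 and 0.15), with the processed signal (0.0645) or with the submitters' table (0.114), and its difference of 2.33 was 0.65 with an offset of 50.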

How the results depend on the processing

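Within testis no paired analysis was possible because each age was 1 animal and the numbers only order the ages. In the fit over organs, age as a replicate block, chosen after seeing the data, gave 10370 genes against 9873; the labels do not say whether organs of an age came from 1 male. Signs of the 111 called genes named here were never reversed, and 94 of them kept their call under every alternative. The median of the mitotic list lay between -0.35 and 0.062 with 1 array left out, and was above 0 only without the 1-week array. The count of genes changed at least 4-fold (2470) was 1161 with an offset of 50 and 7280 at 2-fold, and 2109 to 3126 with 1 array left out, while the count called ranged from 7527 to 9292. Between 1 week and 4 weeks, 418 genes were at least 4-fold higher with the processed signal, 79 with the offset, 420 with the submitters' table and 1007 at 2-fold, and 215, 18, 176 and 836 were lower. From 2 months to 4 months 200, 13 and 180 genes differed at least 4-fold with the processed signal, the offset and the submitters' table (80 in the report), and from 4 months to 2 years 254, 33 and 233 (122 in the report). Genes that did not pass changed sign in some settings: INSL3 differed by -0.13 with the processed signal and -0.27 with median scaling, and LCN5 by 0.11 with the processed signal and 0.070 with the submitters' table. With 1 array left out, the difference ranged from -1.90 to 4.02 for AQP8, -1.73 to 3.40 for GPR55, -0.34 to 3.41 for DMC1, -0.52 to 2.56 for SYCP1, -0.53 to 1.48 for COX8C, -2.40 to 1.15 for LCN6, -0.73 to 0.59 for SPO11 and -0.0087 to 0.060 for INSL3. AQP8 and GPR55 passed downwards without the 1-week array (limma, adjusted p = 0.017 and 0.0337), and AQP8, GPR55, DMC1, SYCP1 and COX8C passed upwards without the 4-week array (adjusted p between 0.00122 and 0.0194). In AQP8, GPR55, DMC1, SYCP1 and COX8C the lowest value was that without the 1-week array, which leaves the 4-week array as the only young one. Levels near background and saturated levels limit what can be seen in dim genes and in INSL3, PRM1, PRM2, TNP1 and ANKRD35.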

Other observations

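Spermatid genes that were dim in both young testes were looked up in the 68 samples that were not testis, over 9 genes with an older mean of at least 12 log2 units. In the cerebral cortex of the 4-month male 6 of the 9 were above background, and their median lay 2.19 log2 units above the other cortex samples. There PRM1 measured 9.80 against a median of 3.66 in the other cortex samples, and PRM2 measured 6.30 against 2.07. In the kidney of the 2-month male 5 of the 9 were above background, with PRM1 at 8.80 against 3.54. Both samples are part of the mean change of PRM1 in the other organs, 1.46 log2 units, which enters the comparison of PRM1 between testis and the other organs. Their source was not tested.

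Some genes lay outside both classes at 4 weeks. FMO1, a monooxygenase, measured 8.23, 10.56, 6.98, 5.92 and 7.65 from 1 week to 2 years, and LCN6, a lipocalin of the epididymis, 4.66, 8.20, 4.13, 6.77 and 6.51. NUAK2, a stress-related kinase, measured 5.58, 2.99, 7.99, 6.60 and 8.01, and SQOR, a mitochondrial sulfide enzyme, 7.83, 6.03, 9.14, 9.04 and 9.13. FMO1 fell and NUAK2 rose between the classes (limma, adjusted p = 0.038 and 0.0195), but FMO1 did not pass without the 4-week, 2-month or 4-month array (adjusted p between 0.0867 and 0.141), nor NUAK2 without the 2-month or 2-year array (adjusted p between 0.0566 and 0.0628). With 1 animal at 4 weeks these values have no replicate check.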
